A study of Mus musculus with 11 samples.

Results

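Adhesion G protein-coupled receptors are cell-surface receptors with a long extracellular part, which holds adhesion domains, joined to a seven-helix membrane part. Most are cut in a domain next to the membrane during their synthesis, and the stub that stays exposed on the membrane part can act as a tethered agonist. They couple to heterotrimeric G proteins, and they bind matrix proteins or proteins on neighbouring cells. In blood vessels Adgrl4, Adgrf5 and Adgra2 are the best known members, and the ADGRE subfamily is carried by myeloid cells.

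All genes whose platform symbol starts with Adgr and a subfamily letter and number, or with Celsr and a number, were taken, which gave 26 genes of the 19505 with a symbol on the array. Where a gene has several transcript clusters, each a set of probes summarised as 1 value, its cluster was to be chosen by the mean over all 11 arrays. All 26 had a single cluster, so no measured value decided which members or clusters were taken. The family genes Adgre5, Adgrf3, Adgrg4 and Adgrg5 were not analysed here. The platform's symbol and gene identifier matched RefSeq for all 26.

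RNA came from liver sinusoidal endothelial cells (LSEC), the fenestrated lining of the hepatic capillaries, of mice that received high fat chow for 2 weeks from an age of 8 weeks. The 5 knockout arrays, titled autophagy deficient, are from Atg5lox/lox;VE-cadherin-Cre mice, in which an endothelial promoter drives Cre against floxed Atg5. The 6 wild type arrays are from Atg5lox/lox mice without Cre. All 11 samples therefore carry floxed Atg5 and come from mice on the diet, and no mice on ordinary chow are among them. The titles call the replicates biological and do not say whether each is 1 animal or a pool. The question behind the comparison was what loss of endothelial autophagy does to LSEC early in high fat feeding.

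Values are RMA values on the log2 scale, so a difference of 1 is a doubling. Each array also carries antigenomic probes that match no mouse sequence, in 23 bins of rising GC content. Their mean was 4.67 to 5.17 per array and their brightest bin read 7.90 to 8.78. A cluster below the mean of the bins has no level that can be told from background, and 1 above the brightest bin is above any of them. Levels of different genes rest on different probes and are not ranked against each other.

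Atg5, the targeted gene, averaged 7.60 ± 0.17 over the 5 knockout arrays and 7.50 ± 0.09 over the 6 wild type arrays (mean ± SD), which differ by 0.10 (SE 0.10, exact permutation p = 0.245). Where its probes lie relative to the floxed part is not known here, so these values are no check of the genotype, and directions rest on the labels. Endothelial markers were bright throughout: the mean of 14 LSEC markers lay between 11.89 and 12.16 in knockout arrays and between 11.89 and 12.27 in wild type arrays, with 0 called. The knockout and wild type arrays did differ in other cells' markers. The mean of 15 macrophage genes lay between 7.98 and 10.28 in knockout and between 7.36 and 8.70 in wild type, and 12 were higher by the study's rule, which asks for a 1.5-fold difference or more and an unadjusted p no larger than 0.05. The mean of 13 hepatocyte genes lay between 7.91 and 9.53 in knockout and between 8.84 and 10.32 in wild type, with 9 lower by the rule. Of all 22206 clusters, 0.671% were higher and 0.356% lower by the rule, or 1.03% in either direction. No cluster, and so no marker, passed an adjusted p of 0.05 in limma. Both sexes were present, with 1 male of 5 in knockout and 2 males of 6 in wild type as read from Y-linked genes. Intron control probes were brighter on 2 knockout and 2 wild type arrays (5.75 to 5.96) than on the other 7 (5.05 to 5.38). In RNA from a mixture, fewer cells of a type and less RNA per cell cannot be told apart.

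Promoter windows show the start sites of Adgre4, the member with the smallest p, and of the endothelial genes Adgrl4 and Adgrf5. They run from 250 bases before to 50 bases after the start, 5′ to 3′ on the gene's strand. The windows come from the RefSeq table of build GRCm38.p6, which matched 20 of the 26 members, Adgre1 not among them. Capitals mark matches to 4 motifs searched on both strands. The motif GAGGAAG is a form bound by the myeloid factor PU.1, and the related motif CAGGAAG is bound by other factors of the ETS family. The motif AGATAA is bound by GATA factors, and the motif TATAAA is the core of the TATA box. No match of 1 motif overlaps that of another in the windows shown.
Adgre4, chr17:55749734-55750033, plus strand: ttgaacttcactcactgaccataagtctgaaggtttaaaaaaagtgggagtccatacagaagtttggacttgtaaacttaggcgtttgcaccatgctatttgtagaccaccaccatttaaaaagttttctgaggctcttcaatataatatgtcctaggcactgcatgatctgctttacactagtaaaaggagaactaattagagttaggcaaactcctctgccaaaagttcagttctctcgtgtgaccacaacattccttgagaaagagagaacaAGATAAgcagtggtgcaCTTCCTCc
Adgrl4, chr3:151437632-151437931, plus strand: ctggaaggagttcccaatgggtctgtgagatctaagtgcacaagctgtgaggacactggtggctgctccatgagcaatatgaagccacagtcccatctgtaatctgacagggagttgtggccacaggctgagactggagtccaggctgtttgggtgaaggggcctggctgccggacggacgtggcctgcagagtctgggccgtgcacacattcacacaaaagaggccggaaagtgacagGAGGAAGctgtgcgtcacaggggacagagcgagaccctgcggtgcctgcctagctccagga
Adgrf5, chr17:43360181-43360480, plus strand, the upstream of 2 starts: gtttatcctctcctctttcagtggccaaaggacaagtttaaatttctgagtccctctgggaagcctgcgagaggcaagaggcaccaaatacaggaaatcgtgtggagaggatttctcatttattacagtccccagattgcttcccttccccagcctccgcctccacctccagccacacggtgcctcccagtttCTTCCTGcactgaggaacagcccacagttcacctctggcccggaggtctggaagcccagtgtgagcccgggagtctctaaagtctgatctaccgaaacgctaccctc

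The Adgre4 window holds AGATAA on the plus strand and GAGGAAG on the minus strand, both past the start (first base at 25 and 42). In Adgrl4 GAGGAAG lies at -11 on the plus strand, and in Adgrf5 CAGGAAG lies at -57 on the minus strand. GAGGAAG stands in 6 of the 24 windows of 20 family members, some of which have several starts, and in 13.6% of all 32851 promoter windows in the table. For CAGGAAG the counts are 4 of 24 against 13.3%, for AGATAA 3 of 24 against 11.2%, and for TATAAA 2 of 24 against 13.6%. A match describes the letters and not a site in use. GAGGAAG was found at Adgre4, which was higher in knockout, and at Adgrl4, whose difference was within its standard error. Whether motifs go with differences was not tested.

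Of the 26 receptors, 2 were higher and 0 lower in knockout by the study's rule, and both were the measured ADGRE genes, Adgre4 and Adgre1. That is 7.69% of the members, where 0.671% of all 22206 clusters were higher and 0.356% lower by the same rule. None of the 26 passed an adjusted p of 0.05 over all clusters in limma, as no cluster did. At an unadjusted p of 0.05 or less without a fold limit, 2 members were higher and 2 lower, against 2.61% and 3.78% of all clusters. In 20 members the log2 difference was smaller than 0.2 in size. The median over the family was -0.02, with 10 members above 0 and 16 below, beside a median of -0.02 over all clusters. In 0 of the 26 did the arrays of the genotypes stay apart without overlap, which 0.473% of all clusters did.

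**Figure D1:**
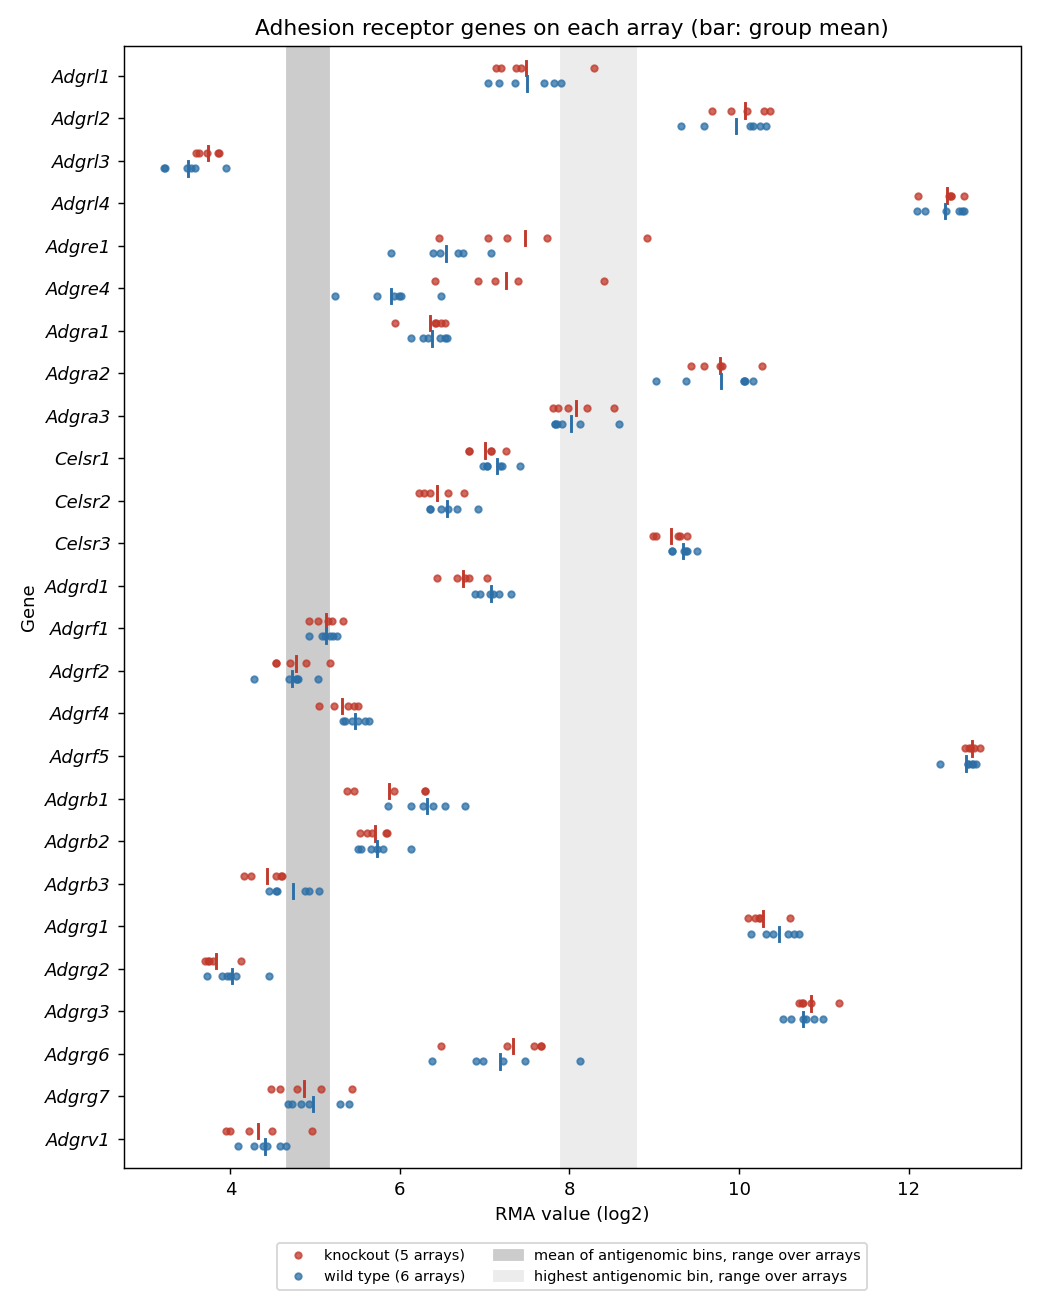
RMA values (log2, horizontal axis) of the 26 adhesion receptor genes on each array, knockout (5 red points) above wild type (6 blue points), with a bar at each group mean. The dark grey band spans the mean of the antigenomic bins over arrays (4.67 to 5.17) and the light band their brightest bin (7.90 to 8.78); the genotypes overlap in every gene, and in Adgre4 4 knockout points lie to the right of all wild type points.

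Adgre4 and Adgre1 carry EGF-like domains on their extracellular part. Adgre1 is the antigen by which mouse tissue macrophages are usually recognised, and Adgre4 is a related receptor of mouse myeloid cells. Adgre4 read 7.39, 8.41, 6.41, 6.92 and 7.12 in knockout arrays 1 to 5, against a lowest of 5.23, a median of 5.96 and a highest of 6.48 in the 6 wild type arrays. Of the 5 knockout arrays 4 lay above every wild type array, and knockout array 3 lay below wild type array 5 only. Adgre4 thus differed by 1.36 (SE 0.30), or 2.56-fold, with an exact permutation p of 0.0043 and a limma adjusted p = 0.765 over all clusters. All 11 arrays read above the mean of the bins and 0 above the brightest bin, within the range of signal that unmatched probes give.

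Adgre1 read 7.26, 8.91, 6.46, 7.04 and 7.73 in knockout arrays 1 to 5, against a lowest of 5.90, a median of 6.58 and a highest of 7.08 in wild type. Here 3 knockout arrays lay above every wild type array, and knockout array 3 lay below the wild type mean. Adgre1 differed by 0.94 (SE 0.35), or 1.91-fold, with an exact permutation p = 0.039 and a limma adjusted p = 0.765. Knockout array 2 held the highest value of both genes and was the single array on which Adgre1 exceeded the brightest bin. Without it Adgre1 fell short of 1.5-fold, at 0.58, while Adgre4 still met the rule, at 1.07. The limma adjusted p was then 0.776 for both.

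Macrophage markers were high on the arrays where both genes were high. Knockout array 2 had the highest mean of the 15 macrophage genes (10.28) and among wild type arrays number 5 was highest (8.70), and these 2 arrays also led their genotypes for both ADGRE genes. Vsig4, a complement receptor of Kupffer cells, the macrophages of the liver sinusoid, averaged 9.35 ± 0.86 over knockout arrays and 7.70 ± 0.72 over wild type arrays (mean ± SD, n = 5 and 6). The folate receptor Folr2 differed by 1.54 (SE 0.46) and the transcription factor Spic by 1.34 (SE 0.36). With genotype means removed, Adgre1 followed the macrophage mean over the 11 arrays with a Pearson r of 0.923 (permutation p = 4e-05, adjusted 8e-05 over 2 relations) and a Spearman rho of 0.855 (permutation p = 0.0013, adjusted 0.0025). For Adgre4 the Pearson r was 0.877 (permutation p = 0.00059, adjusted 0.00059) and the Spearman rho 0.664 (permutation p = 0.03, adjusted 0.03). Leaving out knockout array 2 and wild type array 5, whose macrophage means lay farthest from the median once genotype means were removed, gave r values of 0.821 for Adgre1 and 0.598 for Adgre4.

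With the macrophage mean as a covariate, which itself differs between the genotypes, the difference was 0.52 for Adgre4 (limma adjusted p = 0.273) and -0.10 for Adgre1 (limma adjusted p = 0.815). Neither then met the rule. Without knockout array 2 and wild type array 5, each the highest of its genotype in macrophage mean, both did, at 1.18 for Adgre4 and 0.68 for Adgre1. In the arrays that remain, the macrophage mean still ran from 7.98 to 9.07 in knockout and from 7.36 to 7.92 in wild type. This subset therefore does not remove the macrophage difference between the genotypes. Of 7 markers of nonclassical monocytes, blood cells that also carry Adgre4 in mouse, 3 differed upward and 4 downward, with a median of -0.04. Treml4 (0.93, SE 0.36) and Cd300e (0.82, SE 0.30) were higher by the rule, both named after their values were seen. The mean of the 7 ran from 6.12 to 6.92 in knockout and from 6.11 to 6.57 in wild type (exact permutation p = 0.225). In the lists of 5 classical monocyte, 5 eosinophil, 8 neutrophil, 6 dendritic, 10 T and NK, 4 B, 9 stellate and 6 bile duct cell markers measured, 0 were called, where 1.03% of all clusters were. Differences above and below 0 numbered 2 and 3 for classical monocyte, 1 and 4 for eosinophil and 4 and 4 for neutrophil markers. They numbered 1 and 5 for dendritic, 8 and 2 for T and NK, 0 and 4 for B, 8 and 0 for stellate and 2 and 4 for bile duct markers. The mean of the 4 B markers averaged 6.21 in knockout and 6.33 in wild type (exact permutation p = 0.043, not adjusted over lists). For the means of the other lists just counted the exact permutation p ran from 0.141 (dendritic) to 0.978 (neutrophil). What part other cells have in the ADGRE differences was not tested beyond these values.

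**Figure D2:**
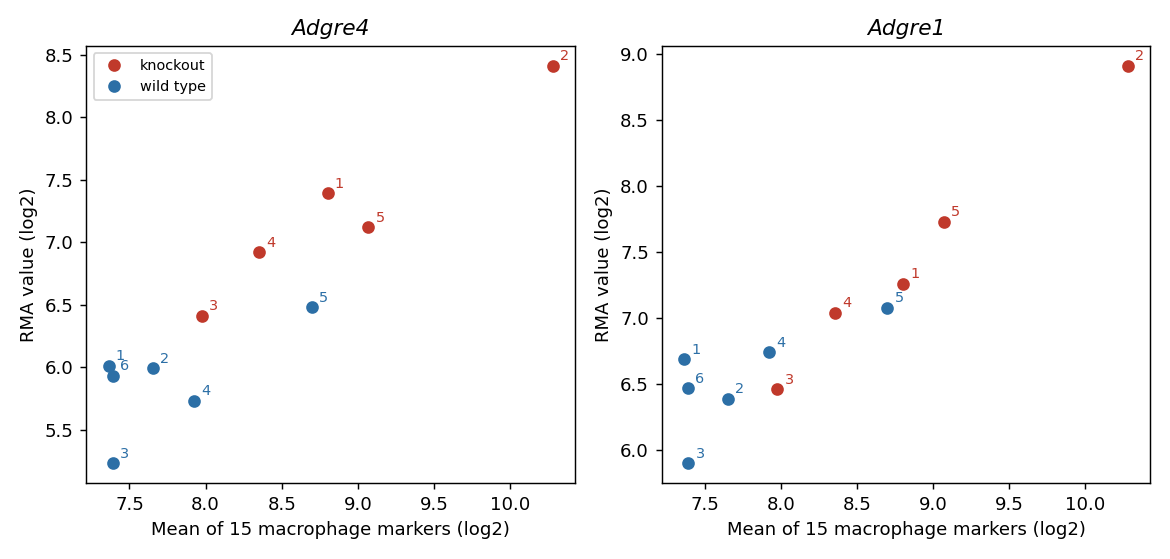
RMA values (log2, vertical axes) of Adgre4 (left) and Adgre1 (right) against the mean of 15 macrophage markers (log2, horizontal axes), 1 point per array numbered by replicate, knockout in red and wild type in blue. Knockout array 2 is at the upper right of both panels (8.41 and 8.91), and wild type array 5 is the wild type array farthest to the right (8.70).

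Both ADGRE differences were also set against the technical and sex composition of the arrays. Within the 7 arrays of lower intron control (3 knockout, 4 wild type) Adgre4 differed by 1.78 and Adgre1 by 1.44. Within the 4 arrays of higher intron control (2 knockout, 2 wild type) the values were 0.70 and 0.17, and Adgre1 did not meet the rule there (limma adjusted p = 0.89). The difference between these sets was not tested. In the 8 female arrays (4 of each genotype) Adgre4 differed by 1.41 and Adgre1 by 1.01.

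The endothelial members read above the brightest antigenomic bin in every array, and none met the rule. Adgrl4 is an orphan receptor of vessels that takes part in angiogenesis. It read 12.48, 12.11, 12.65, 12.50 and 12.50 in knockout arrays 1 to 5, and its lowest, median and highest wild type values were 12.10, 12.52 and 12.65. The difference was 0.01 (SE 0.14), with an exact permutation p = 0.933. Adgrf5, known from the control of lung surfactant and also carried by endothelium, read 12.74, 12.67, 12.77, 12.71 and 12.84 in knockout, against 12.37, 12.73 and 12.80 as the lowest, median and highest in wild type. It differed by 0.07 (SE 0.10, exact permutation p = 0.541), and wild type array 2 stood below all the others. The neighbouring coding gene in RefSeq order, Adgrf1, a receptor for a lipid mediator of neurons, read 4.93 to 5.33 in knockout and 4.93 to 5.26 in wild type, little above the mean of the bins (difference -0.00033, SE 0.10).

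Adgra2 acts with the anchored protein Reck as a co-receptor for Wnt7 ligands in brain vessels. In these cells it read 9.80, 10.27, 9.59, 9.43 and 9.77 in knockout, against a lowest of 9.02, a median of 10.06 and a highest of 10.17 in wild type, and all 11 values were above the brightest bin. The difference was -0.02 (SE 0.22, exact permutation p = 0.933). Its values divided by intron control rather than by genotype: the 4 arrays of higher intron control read 9.02 to 9.59 and the other 7 read 9.77 to 10.27. Adgra2 was 1 of 26 members (3.85%) with this split downward, which 7.17% of all clusters showed, and 0 members showed it upward, which 6.89% did, so the split is not particular to the family. Reck differed by 0.04 (SE 0.16), Wnt7a by -0.11 (SE 0.11) and Wnt7b by -0.09 (SE 0.17).

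The other ADGRA genes, Adgra3 and Adgra1, are less well understood relatives of Adgra2. Adgra3 read 7.81 to 8.53 in knockout and 7.83 to 8.58 in wild type (difference 0.06, SE 0.17). Adgra1 read 5.94 to 6.53 in knockout and 6.13 to 6.55 in wild type (difference -0.02, SE 0.13). These ranges overlapped almost fully.

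Among the latrophilins, which bind teneurins and FLRT proteins on other cells, Adgrl2 was above the brightest bin in all arrays. It read 9.68, 9.91, 10.37, 10.10 and 10.29 in knockout, against 9.31, 10.15 and 10.32 as the lowest, median and highest in wild type. The wild type values spread more widely (SD 0.41, n = 6) than the knockout values (SD 0.28, n = 5), and the difference of 0.11 (SE 0.20) had an exact permutation p = 0.641. Adgrl1 ran from 7.13 to 8.29 in knockout and from 7.04 to 7.90 in wild type, with knockout array 2 apart from the others of its genotype, and differed by -0.02 (SE 0.22). Adgrl3 read below the mean of the bins on all 11 arrays, so its difference of 0.23 (SE 0.13) says nothing of expression.

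In the ADGRG subfamily, Adgrg1 and Adgrg3 are neighbouring genes in RefSeq order, and both were above the brightest bin on every array. Adgrg1, a receptor for collagen III and transglutaminase in brain development, read 10.25, 10.60, 10.24, 10.11 and 10.19 in knockout, against 10.14, 10.49 and 10.71 as the lowest, median and highest in wild type. Knockout array 2 was higher than the rest of its genotype, and the difference was -0.19 (SE 0.13, exact permutation p = 0.160). Adgrg3, which is best known from neutrophils, read 10.76, 11.18, 10.85, 10.71 and 10.74 in knockout, against 10.52, 10.78 and 10.99 in wild type, again lowest, median and highest. It differed by 0.09 (SE 0.12, exact permutation p = 0.461). Neutrophil markers ran over a much wider range (list mean 6.07 to 8.24 in knockout and 6.16 to 7.55 in wild type). Knockout array 1, with the highest neutrophil mean, read 10.76 for Adgrg3, and knockout array 5, with the lowest, read 10.74. The relation of Adgrg3 to these markers over all arrays was not tested.

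Adgrg6, which is needed for myelination by Schwann cells and binds collagen IV, varied most between arrays of one genotype among the members called by no rule. It read 7.66, 7.26, 7.66, 6.48 and 7.58 in knockout, against a lowest of 6.38, a median of 7.10 and a highest of 8.12 in wild type. The difference of 0.15 (SE 0.29) was smaller than the SD of either genotype (0.50, n = 5 in knockout, and 0.59, n = 6 in wild type). All its values lay above the mean of the bins and below the brightest bin. Adgrg2, a gene of the epididymis, was below the mean of the bins on all arrays (difference -0.19, SE 0.14), and Adgrg7, a gene of the gut, was above it on 6 of 11 (difference -0.11, SE 0.19).

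Adgrd1 and Adgrb1 had an unadjusted p under 0.05 in the downward direction without reaching 1.5-fold. Adgrd1 raises cyclic AMP through Gs. It read 6.44, 6.67, 6.82, 6.77 and 7.03 in knockout, against a lowest of 6.89, a median of 7.08 and a highest of 7.31 in wild type, so that 4 of 5 knockout arrays lay below every wild type array. Adgrd1 differed by -0.33 (SE 0.12), with an exact permutation p = 0.015 and a limma adjusted p = 0.765. Adgrb1, an engulfment receptor that signals to Rac through ELMO and DOCK proteins, read 5.46, 5.38, 5.93, 6.29 and 6.30 in knockout, against 5.86, 6.33 and 6.77 as the lowest, median and highest in wild type. Knockout arrays 1 and 2 lay below every wild type array and the other 3 within their range. Adgrb1 differed by -0.45 (SE 0.20), with an exact permutation p = 0.089 and a limma adjusted p = 0.765. Its unadjusted p was over 0.05 when any of knockout arrays 1, 2 and 3 or wild type arrays 1, 2, 4 and 6 was left out. The difference was -0.24 with the macrophage mean as a covariate and -0.27 with array weights, both with an unadjusted p over 0.05, and -0.71 with the hepatocyte mean as a covariate. A replicate block (-0.44), repeated quantile normalization (-0.38) and median centring (-0.41) also gave Adgrb1 an unadjusted p over 0.05. Both genes read between the mean and the brightest of the bins. With each of the 11 arrays left out in turn Adgrd1 differed by -0.40 to -0.26, with the unadjusted p just over 0.05 without knockout array 1, and its difference was -0.42 in the arrays of lower and -0.18 in those of higher intron control.

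Of the other ADGRB genes, Adgrb2 differed by -0.03 (SE 0.13), and the synaptic receptor Adgrb3, a partner of C1q-like proteins, by -0.30 (SE 0.14). Adgrb3 was above the mean of the bins on 1 of 11 arrays, so its difference is not one of measured expression. The CELSR receptors carry cadherin repeats and set planar cell polarity. Celsr3 was above the brightest bin on all arrays, at 8.98 to 9.39 in knockout and 9.21 to 9.50 in wild type, and differed by -0.15 (SE 0.11, exact permutation p = 0.147). Celsr1 differed by -0.13 (SE 0.12) and Celsr2 by -0.12 (SE 0.14). In each of the 3 genes 2 knockout arrays lay below the lowest wild type array, and none met the rule.

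The remaining members were close to the mean of the bins or below it. Adgrf4 differed by -0.15 (SE 0.11) and Adgrf2 by 0.04 (SE 0.15), and Adgrf2 was above the mean of the bins on 3 of 11 arrays. Adgrv1, a very large receptor of the inner ear's hair cells, was below it on all arrays (difference -0.08, SE 0.18). In all, 7 members were above the brightest bin on every array (Adgrl2, Adgrl4, Adgrf5, Adgra2, Adgrg1, Adgrg3 and Celsr3), 13 were above the mean of the bins on every array, 3 were around it and 3 below it on every array.

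**Figure D3:**
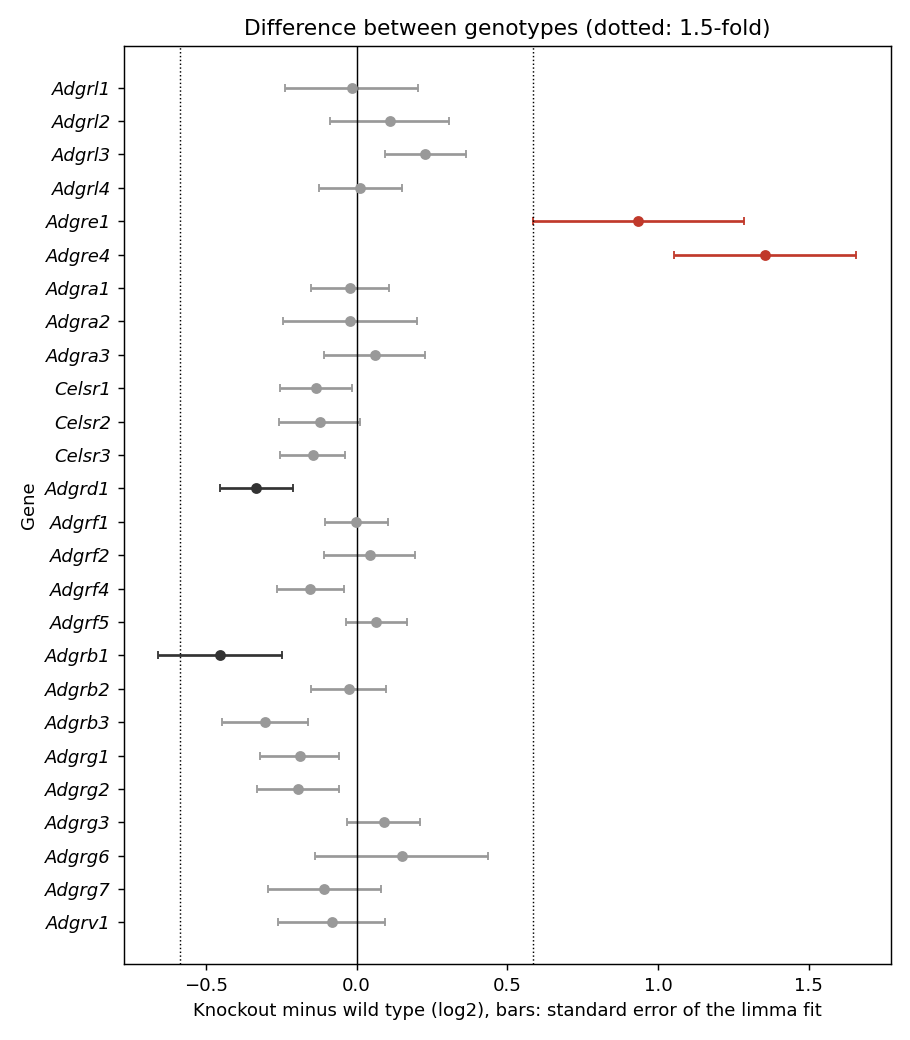
Knockout minus wild type difference (log2, horizontal axis) of the 26 genes with the standard error of the limma fit, ordered by subfamily. Adgre4 (1.36) and Adgre1 (0.94), in red, lie past the dotted line of 1.5-fold; Adgrd1 and Adgrb1, in black, have an unadjusted p under 0.05, and the others are grey.

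Genes that encode known extracellular partners of adhesion receptors were followed as a list of 34, of which 32 were measured. The list includes partners of Adgre5, which is not among the 26 members. By the rule 0 were called in either direction, where 1.03% of all clusters were. The list's median difference was -0.01, with 14 above 0 and 18 below. The smallest p was that of Fndc4, a secreted protein described as a ligand of Adgrf5, at 5.18 ± 0.09 over knockout arrays and 5.47 ± 0.19 over wild type arrays (mean ± SD, n = 5 and 6). Its difference of -0.29 (SE 0.11) had an exact permutation p = 0.013 and a limma adjusted p = 0.765. The integrin Itga5, which binds the Adgre5 protein, differed by 0.28 (SE 0.16). The Adgre5 ligand Cd55, a complement inhibitor, differed by -0.10 (SE 0.18), and the Adgrg1 ligands Tgm2 and Col3a1 by 0.15 (SE 0.11) and 0.58 (SE 0.50).

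Downstream, 23 of 25 listed signalling genes, among them G protein, ELMO, arrestin and receptor kinase genes, were measured. Of these 0 met the rule, where 1.03% of all clusters did. Their median was 0.08, with 15 above 0 and 8 below. Grk5, a kinase that phosphorylates active receptors, read 7.89, 8.17, 8.24, 8.11 and 8.22 in knockout, against a lowest of 7.35, a median of 7.52 and a highest of 7.94 in wild type. Only knockout array 1 lay within the wild type range. Grk5 differed by 0.56 (SE 0.13), or 1.48-fold, just short of the rule's fold, with an exact permutation p = 0.0065 and a limma adjusted p = 0.765. Grk5 met the rule without knockout array 1 (0.62), wild type array 3 (0.64) or wild type array 6 (0.59). With the macrophage mean as a covariate its difference was 0.57.

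Elmo1, the Rac regulator that works below Adgrb1, read 6.20, 6.58, 5.87, 6.07 and 5.95 in knockout, against a lowest of 5.43, a median of 5.54 and a highest of 6.04 in wild type. Elmo1 differed by 0.47 (SE 0.17), with an exact permutation p = 0.035 and a limma adjusted p = 0.765. Given the macrophage mean as a covariate, its difference was 0.08 (limma adjusted p = 0.816), and given the hepatocyte mean it was 0.83 (limma adjusted p = 0.049). Both covariates themselves differ between the genotypes. Among 11 measured of 13 listed planar polarity genes 0 met the rule, where 1.03% of all clusters did, and the median was -0.05. The cytoplasmic adaptor Dvl3 differed by 0.31 (SE 0.12, exact permutation p = 0.024, limma adjusted p = 0.765) and Ankrd6 by -0.26 (SE 0.13, exact permutation p = 0.052).

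**Figure D4:**
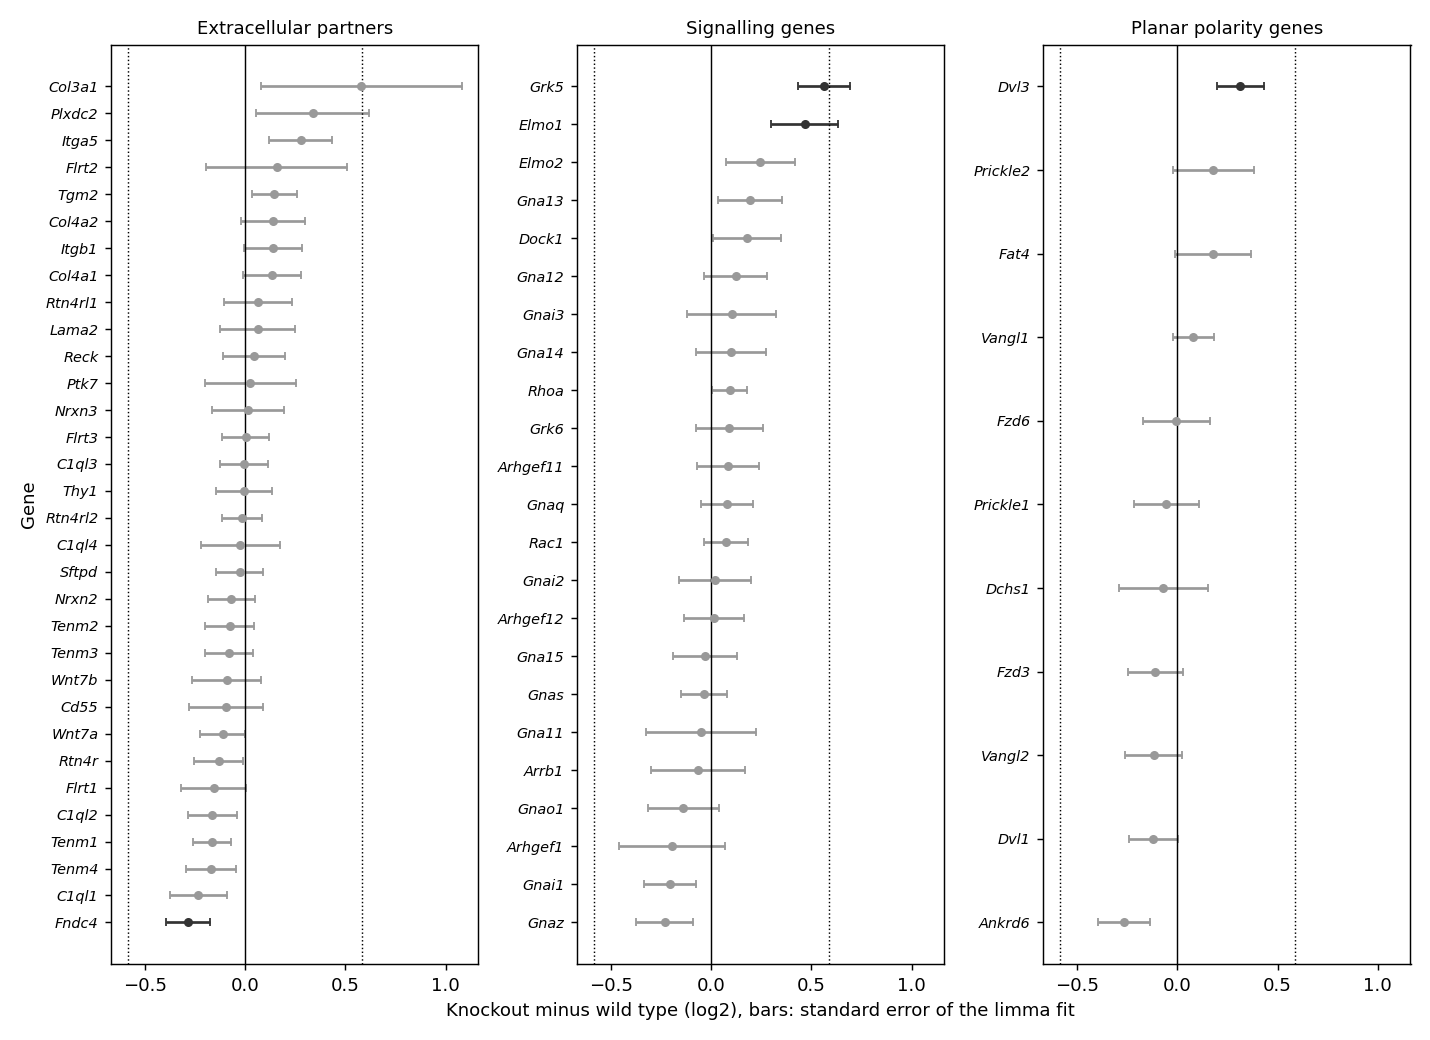
Knockout minus wild type difference (log2, horizontal axes) with the standard error of the limma fit for 32 extracellular partner genes (left), 23 signalling genes (middle) and 11 planar polarity genes (right), each panel ordered by size. No gene passes the dotted 1.5-fold lines with an unadjusted p under 0.05; Fndc4, Grk5, Elmo1 and Dvl3, in black, have an unadjusted p under 0.05.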

How the data were processed

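Arrays were Mouse Clariom S, hybridised with biotin-labelled cDNA from 100 ng of Trizol-extracted RNA per the labels' protocols. The deposited values are RMA values on the log2 scale, made by the authors with Affymetrix Expression Console per the submitters' processing notes, for which no version or build is stated in the sources used here. This method equalises the distributions of arrays and compresses weak signals. The number of arrays limits the precision. The 22206 clusters other than the 6640 control rows were fitted with limma 3.58.1 in R 4.3.3 (genotype only, eBayes, Benjamini-Hochberg over all clusters), and single genes by exact permutation, two-sided, of the arrays' 462 splits. Differences are knockout minus wild type with limma's standard error. Replicate numbers were treated as names, since same-numbered arrays correlated between -0.32 and 0.39 in their deviations. All members are named, beside Atg5 and Cdh5, and of the partner lists the called genes and the 2 of smallest p. Cd55, Reck, Wnt7a, Wnt7b, Tgm2 and Col3a1 were named beside the receptors they bind, with their values seen. Of each marker list that differs by over 0.5, the 3 genes of smallest p were to be named. For hepatocytes these are Serpina1c (-1.00), Tat (-1.27) and Apoa1 (-1.12). The VE-cadherin gene Cdh5 averaged 12.55 ± 0.13 over knockout arrays and 12.54 ± 0.04 over wild type arrays (mean ± SD, n = 5 and 6). The family and lists were chosen with earlier results of these data known. The labels do not tie replicates to single animals, so each p reflects only how these samples vary. The fit was tested on simulated data. Alternatives were each array left out, a replicate block, other scalings and variance models, covariates (sex among them, read from 3 Y-linked genes), a filter on dim clusters, all clusters of a symbol and other thresholds. The replicate block leaves out wild type array 6, which has no knockout array of the same number. Subsets by intron control, sex and macrophage mean were added after the data were seen.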

Additional observations from a re-analysis of the deposited data

Results flagged for a closer look

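Of 100 sets of values checked, each a gene or list mean in 1 genotype, 6 held an array whose gap to its nearest neighbour was large for the set's range; chance gives about 1 in 20. Knockout array 2 stood apart in 3 of them, at 5.94 for Adgra1 below the others (6.41 to 6.53), at 10.60 for Adgrg1 above them (10.11 to 10.25) and at 8.29 for Adgrl1 above them (7.13 to 7.43). The same array had the highest macrophage marker mean. Knockout array 4 read 4.13 for Adgrg2, against 3.70 to 3.80 in the other knockout arrays, all below the mean of the antigenomic bins, and 7.90 for Atg5, against 7.48 to 7.57. Wild type array 2 read 12.37 for Adgrf5, against 12.70 to 12.80 in the other wild type arrays.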

How the results depend on the processing

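Adgre4 stayed higher under all 26 alternatives run on it (0.52 to 1.88, limma adjusted p 0.048 to 0.987) and missed the rule under 1, the macrophage covariate (0.52). Adgre1 ran from -0.10 to 1.58 (adjusted p 0.118 to 0.987). The count of 2 higher members ran from 1 to 2 with each array left out, and was 0 with the macrophage covariate, 1 in the 4 arrays of higher intron control and 1 at 2-fold. The count of 0 lower members was 1 with the hepatocyte covariate (Adgrb1, -0.71), 1 in the 7 arrays of lower intron control (Adgrb1, -0.61) and 2 with no fold limit. With the hepatocyte covariate, which itself differs between the genotypes, 1 member, Adgre4, passed the adjusted p (0.048). The family's median ran from -0.08 to 0.01 with each array left out.

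Of the partners, 2 were called with the hepatocyte covariate, 1 with the intron control covariate, 2 in the 4 arrays of higher intron control and 1 with no fold limit. The signalling count ran from 0 to 1 with each array left out. It was 1 under the replicate block (Grk5, 0.59), with arrays centred on their median (Grk5, 0.60) and with sex as a covariate (Grk5, 0.60). With the hepatocyte covariate it was 1 as well, but the gene was Elmo1 (0.83). In the 4 arrays of higher intron control and in the 8 female arrays the count was also 1. It was 2 with the macrophage covariate, neither of them Grk5 (0.57) or Elmo1 (0.08), and 2 with no fold limit. The planar polarity count was 1 with no fold limit. The replicate block changed no other call, with 2 members higher and 0 lower. It leaves out wild type array 6, and Grk5 differed by 0.59 without that array and no block as well.

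Signs turned in 15 of the 34 genes followed, and in the main fit all of these except Adgre1 lay within 0.2 of 0. Repeated quantile normalization gave Adgra1 0.036, Adgra3 -0.0079, Adgrb2 0.049 and Adgrf1 0.081, and median centring Adgra1 0.0172, Adgra2 0.0178, Adgrb2 0.0125, Adgrf1 0.0388 and Adgrl1 0.0228. Array weights gave Adgra1 0.0317, Adgra3 -0.0228, Adgrb2 0.007 and Adgrv1 0.031. The macrophage covariate gave Adgra1 0.0905, Adgra3 -0.0194, Adgrg3 -0.0833 and Adgre1 -0.10. The hepatocyte covariate gave Adgra2 0.25, Adgrl1 0.29, Adgrl4 -0.11, Adgrf2 -0.0176, Adgrg7 0.0628 and Cdh5 -0.015. The intron control covariate gave Adgra2 0.0219, Adgrl1 0.0174, Adgrl4 -0.0049 and Adgrf1 7e-04. The block gave Adgrf1 0.016, the same value as leaving out wild type array 6 without a block, and sex gave it 0.005. With each array left out, sign changes gave ranges of -0.072 to 0.0825 for Adgra1, -0.18 to 0.0642 for Adgra2, -0.0525 to 0.17 for Adgra3, -0.072 to 0.054 for Adgrb2, -0.0508 to 0.0492 for Adgrf1, -0.0575 to 0.10 for Adgrf2, -0.01 to 0.36 for Adgrg6, -0.22 to 0.0717 for Adgrl1, -0.02 to 0.21 for Adgrl2, -0.054 to 0.0975 for Adgrl4, -0.24 to 0.01 for Adgrv1 and -0.0225 to 0.06 for Cdh5. The cause of these changes was not tested.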
